A study of Fragaria x ananassa with 9 samples.

Results

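The comparison described here follows the petals of Sijihong from the young bud stage (PF_L) to the stage at which coloration begins (PF_Z). Sijihong is a dark red cultivar among the ornamental strawberries known as pink-flowered, labeled Fragaria x ananassa. The study traces these strawberries to crosses of Fragaria with Potentilla, and Sijihong to the cross of Pink Princess with Pretty Beauty. At PF_L the bud was closed by its sepals and the petals had no color. At PF_Z the sepals had parted a little, the petals were still closed, and the first color was visible. Each stage had 3 biological replicates of untreated petals, and the sources used here do not say how many flowers or plants stood behind a library. A later stage, the big bud (PF_D, 3 libraries), was sequenced alongside and entered the model for its estimate of the spread. Poly(A) RNA had been sequenced on an Illumina HiSeq instrument. Abundances were deposited as TPM (a unigene's share of the transcripts in its library, corrected for its length, with nearly the same sum in every library) for the 50285 unigenes of the authors' Trinity assembly. A unigene was compared if 3 or more of the 9 libraries held it at 1 TPM or above, which took in 47924 of the 50285 (95.3%). Gene names are those of the closest protein match, mostly from other species, and mark a likely relative.

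A petal starts as a small primordium whose cells divide, and later grows mainly because its cells expand. Its epidermis lays down a cuticle, and in colored flowers the epidermal cells fill their vacuoles with anthocyanins, which are made from phenylalanine through the phenylpropanoid and flavonoid enzymes and then glycosylated and transported into the vacuole. Flavonols branch off the same pathway ahead of the anthocyanins, and carotenoids are made separately in plastids.

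Between the 2 stages many genes that copy DNA, package it in histones and drive mitosis fell, as did transcription factors known for organ growth, while each enzyme step from phenylalanine to glycosylated anthocyanin had at least 1 unigene that rose. The cuticle, the cell wall and the ethylene and auxin pathways held unigenes of the same name or family that moved in opposite directions. Values were compared as log2(TPM + 1) with limma, using 1 model of the 9 libraries. A unigene was called where its stages differed 2-fold or more (log2 difference of 1) with an adjusted p (Benjamini-Hochberg, over all 47924) under 0.05. The added 1 makes the log2 differences of unigenes at a few TPM smaller than their ratios. In all, 3280 unigenes (6.84%) were called, 1029 of them higher at PF_Z (2.15%) and 2251 lower (4.70%). At an adjusted p under 0.05 and any fold there were 4663, and at an unadjusted p under 0.05 there were 12810. Of the 3280 called unigenes 3279 showed no overlap between the stages, so a lack of overlap adds nothing to a call. Of all tested unigenes, 8.26% had every PF_Z library above every PF_L library, and 23.2% had the reverse. The median log2 difference over all tested unigenes was -0.21. Rises made up 31.4% of the calls with TPM as deposited, 49.7% once the libraries were scaled by median ratios and 50.5% with quantile normalization, 2 scalings that brought the median to -0.03 and -0.02. The plot of all tested unigenes shows the calls on both sides of a median below 0.

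**Figure D1:**
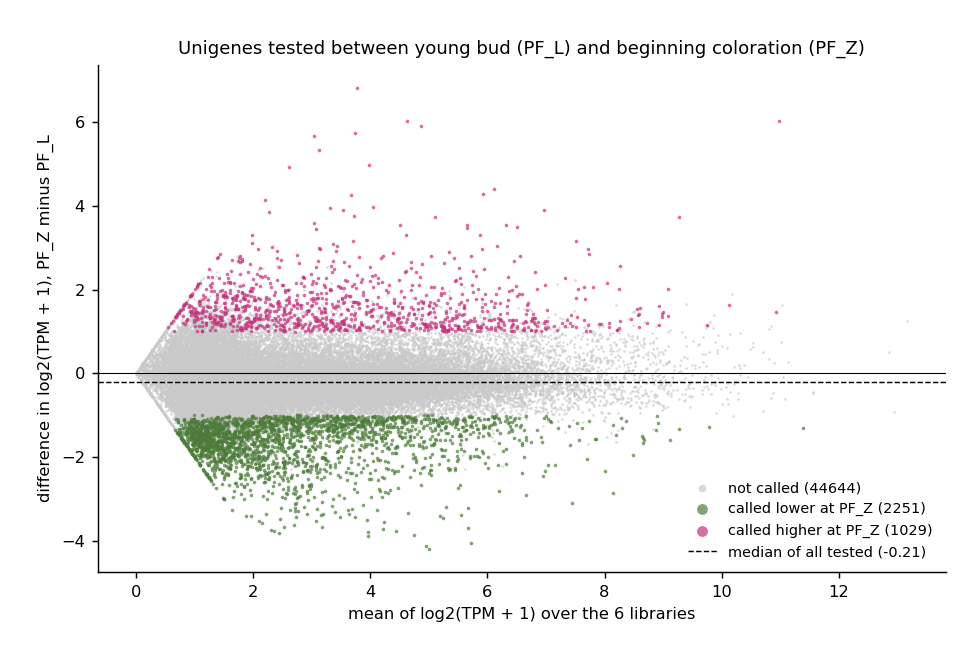
Each point is 1 tested unigene, with its mean log2(TPM + 1) over the 3 PF_L and 3 PF_Z libraries on the x axis and its log2 difference, PF_Z minus PF_L, on the y axis. The 1029 unigenes called higher and the 2251 called lower are colored, and the dashed line is the median of all tested unigenes at -0.21.

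Falls were spread over all levels of abundance, and rises were most frequent among abundant unigenes. Of the 15195 unigenes with a mean under 2 TPM over the 6 libraries, 113 were higher (0.744%) and 417 lower (2.74%). Of the 1643 unigenes at 100 TPM or more, 109 were higher (6.63%) and 61 lower (3.71%). The share of total TPM in the 1029 unigenes called higher was 2.15%, 2.36% and 2.39% in the PF_L libraries and 10.2%, 8.21% and 8.15% in the PF_Z libraries. The 2251 called lower held 6.6%, 6.90% and 6.58% at PF_L and 1.98%, 2.08% and 2.51% at PF_Z. A single unigene, At2g20870, a putative cell wall protein described below, took 0.0376%, 0.0169% and 0.0243% of the TPM at PF_L and 2.29%, 1.16% and 1.67% at PF_Z. Because TPM adds up to a fixed total, such a rise lowers every other value of the library a little. At 4-fold or more, 199 of the called unigenes were higher and 475 lower. Over the called rises the median log2 difference was 1.46, and over the called falls it was -1.51.

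The libraries of a stage were alike. Pearson's r of log2(TPM + 1) across unigenes ran from 0.932 to 0.946 within PF_L, from 0.919 to 0.932 within PF_Z and from 0.869 to 0.909 between the stages. Of the PF_Z libraries, replicate 3 lay closest to PF_L (r = 0.902, 0.909 and 0.906). Without it 4719 unigenes were called (1541 higher, 3178 lower). Leaving out PF_Z replicate 1 or 2 or any 1 PF_L library left 1742 to 2092 calls, and leaving out a PF_D library left 2828 to 3292. Every library sums to nearly the same TPM (993148 to 994910), so depth cannot be read from these values, nor the counting error behind each of them. Groups of 3 cannot give an exact permutation p below 0.1, and single unigenes therefore rest on the limma model. In RNA from whole petals, fewer cells of a type and less RNA per cell cannot be told apart.

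Markers of petals were abundant, and markers of other tissues were present as well. FBP2 (TRINITY_DN21118_c0_g1), a relative of the SEPALLATA MADS-box factors, stood at 1405, 1181 and 1298 TPM in the PF_L libraries and 1223, 1124 and 1462 TPM in the PF_Z libraries. PMADS2 (TRINITY_DN23056_c0_g2), a relative of the petal identity factor PISTILLATA, stood at 1181, 1305 and 1383 TPM at PF_L and 966, 1043 and 1247 TPM at PF_Z. Both were abundant in every library and their stages overlapped. Of the 7 tested petal MADS-box unigenes, 5 had a positive and 2 a negative log2 difference, with a median of 0.35. Only 1 was called, a rise (14.3%, against 2.15% of all tested unigenes). That call was lost without any 1 PF_L library or PF_Z replicate 1 or 2. AGAMOUS (AG, TRINITY_DN15050_c0_g1), which specifies stamens and carpels, was at 2.37, 4.51 and 1.49 TPM at PF_L and 2.91, 2.76 and 6.6 TPM at PF_Z, and its close relative AGL1 (TRINITY_DN18146_c1_g3) at 39.1, 49.5 and 37.9 TPM at PF_L and 25.3, 29.7 and 38.8 TPM at PF_Z, neither of them called. Of 22 tested anther and pollen unigenes none was called, against 6.84% of all tested unigenes, a share at which few calls would be found among 22. The summed level of the 23 listed was 204.8 to 238 TPM at PF_L and 164 to 202 TPM at PF_Z. The light-harvesting proteins of green tissue summed to 7239, 4668 and 5421 TPM at PF_L and to 5678, 3666 and 1558 TPM at PF_Z. The photosystem and Rubisco list summed to 11686, 8731 and 10283 TPM at PF_L and to 12236, 5217 and 3345 TPM at PF_Z. PF_Z replicate 1 was within the PF_L range for the first list and above it for the second. Replicate 3 was the lowest of the 6 for both, and the part of green tissue in the results was not tested. The sieve element occlusion list, a marker of phloem, summed to 1214, 1240 and 1307 TPM at PF_L. At PF_Z it summed to 839, 687 and 930.5 TPM, and none of its 9 unigenes was called (6.84% of all tested unigenes were).

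Of 37 early flavonoid unigenes, 16 rose (43.2%, against 2.15% of all tested unigenes), 2 fell (5.41%, against 4.70%) and 19 were not called, with a median log2 difference of 0.86 against -0.21 overall. Leaving out 1 library at a time gave 15 to 17 rises. The first step, from phenylalanine to cinnamate, is made by phenylalanine ammonia-lyase, and all 3 unigenes of it rose. PAL1 (TRINITY_DN17398_c0_g2) stood at 19.9, 10.4 and 14.2 TPM in the PF_L libraries and 93, 73 and 124 TPM in the PF_Z libraries, a 6.54-fold rise in the mean (log2 difference 2.64 ± 0.26 SE, limma adjusted p = 0.0004). The weakest of them, PAL1 TRINITY_DN26288_c0_g1, had values of 27.8, 25.2 and 25.3 TPM at PF_L and 73.5, 42.8 and 48.2 TPM at PF_Z (log2 difference 1.01 ± 0.19, adjusted p = 0.011) and lost its call without PF_L replicate 2 or 3 or PF_Z replicate 1. Cinnamate 4-hydroxylase, the second step, had 1 unigene (CYP73A16, TRINITY_DN21857_c0_g1) at 30.7, 18.2 and 24.8 TPM in the PF_L libraries and 217, 165 and 244 TPM in the PF_Z libraries. Its rise was 8.5-fold (log2 difference 3.05 ± 0.26, adjusted p = 0.0002), and the lowest PF_Z library lay above the highest PF_L library, as for each PAL1 unigene. Of 12 unigenes of 4-coumarate CoA ligase and its relatives, 2 rose, among them 4CLL6 (TRINITY_DN23538_c0_g1), at 5.88, 8.39 and 5.23 TPM at PF_L and 26.8, 20.3 and 23.2 TPM at PF_Z (log2 difference 1.72 ± 0.18, adjusted p = 0.00062).

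Chalcone synthase, which joins the phenylpropanoid and malonyl units and opens the flavonoid pathway, was represented by short pieces. The most abundant, CHS1 (TRINITY_DN26374_c0_g4), stood at 284, 100.1 and 169 TPM in the PF_L libraries and 2614, 1386 and 3161 TPM in the PF_Z libraries, 12.9-fold higher at PF_Z (log2 difference 3.73 ± 0.41, adjusted p = 0.00067). It measures 260 bp and shares its assembly cluster with other fragments, including PKS1 (TRINITY_DN26374_c0_g2, 864 bp), a polyketide synthase of the same family, at 55, 17.7 and 30.3 TPM at PF_L and 526, 343 and 625 TPM at PF_Z (log2 difference 3.92 ± 0.37, adjusted p = 0.00031). Reads of near-identical copies may have been split among them, so the level of a single fragment is uncertain. The 4 unigenes named chalcone synthase, without the PKS1 fragments, summed to 317, 107 and 189.9 TPM at PF_L and to 2823, 1518 and 3499 TPM at PF_Z. Of these 4, 3 rose and 1 was not called. Both unigenes of chalcone isomerase, which closes the flavanone ring, rose. CHI1 (TRINITY_DN20802_c1_g2) stood at 70.8, 38.9 and 63.4 TPM in the PF_L libraries and 268, 173 and 267 TPM in the PF_Z libraries (4.09-fold, log2 difference 2.03 ± 0.26, adjusted p = 0.0018). The other, CHI3 (TRINITY_DN16164_c0_g1), went from 49.4 ± 15.4 to 266 ± 61 TPM (mean ± SD, n = 3, log2 difference 2.42 ± 0.26, adjusted p = 0.0006). PF_L replicate 2 had the lowest value at PF_L, and PF_Z replicate 2 the lowest at PF_Z, for each of these unigenes.

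At the branch where flavanones become dihydroflavonols, flavanone 3-hydroxylase (TRINITY_DN19052_c0_g2) rose with them. It stood at 80.2, 41.1 and 65.3 TPM in the PF_L libraries and 562, 428 and 690.0 TPM in the PF_Z libraries, a 9.01-fold rise (log2 difference 3.18 ± 0.26, adjusted p = 0.00016). Flavonoid 3'-hydroxylase, which adds the hydroxyl group that separates cyanidin from pelargonidin, had 7 unigenes by description, 2 of which rose and 1 fell (2 falls without PF_Z replicate 1 or 3 or PF_D replicate 1). Of the 7, 5 had a negative log2 difference, with a median of -0.70. Their sums overlapped between the stages, at 87.3, 63.6 and 73.3 TPM at PF_L and 102.2, 63.6 and 92.0 TPM at PF_Z. CYP75B2 (TRINITY_DN25650_c2_g2) was at 3.14, 2.97 and 3.24 TPM in the PF_L libraries and 27.3, 16.8 and 28.6 TPM in the PF_Z libraries (7.77-fold, log2 difference 2.58 ± 0.22, adjusted p = 0.0002). A unigene with the same name, TRINITY_DN20791_c0_g4, went the other way, at 27.2, 21.9 and 25.4 TPM at PF_L and 9.47, 8.31 and 10.6 TPM at PF_Z (log2 difference -1.31 ± 0.22, adjusted p = 0.0065), and its closest protein in Nr is described as a P450 of another family, CYP71A1-like. The flavonoid 3',5'-hydroxylase CYP75A2 (TRINITY_DN13016_c0_g7), of the route to delphinidin, was at 15.3, 6.88 and 6.98 TPM at PF_L and 8.19, 2.84 and 2.16 TPM at PF_Z, with overlapping stages and no call (log2 difference -1.07 ± 0.47, adjusted p = 0.18). Flavonol synthase, which draws dihydroflavonols into flavonols, had 2 rises and 1 fall among 5 unigenes. FLS TRINITY_DN19380_c0_g2 stood at 54.3, 21.2 and 35.9 TPM in the PF_L libraries and 288, 177 and 306 TPM in the PF_Z libraries (6.92-fold, log2 difference 2.81 ± 0.33, adjusted p = 0.001), and another copy in its cluster may share its reads. FLS TRINITY_DN19311_c1_g5 was at 7.41, 7.23 and 7.76 TPM at PF_L and 1.14, 1.22 and 2.38 TPM at PF_Z (log2 difference -1.75 ± 0.26, adjusted p = 0.0037), a fall that was not called with 5 TPM added in place of 1.

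Of 23 late flavonoid unigenes, 6 rose (26.1%, against 2.15% of all tested unigenes), 2 fell (8.70%, against 4.70%) and 15 were not called. Without 1 library 5 or 6 rose and 1 or 2 fell. Dihydroflavonol 4-reductase, the first enzyme committed to leucoanthocyanidins, had 6 tested unigenes, 2 of which rose and none of which fell. With an untested one, the 7 listed summed to 79.9, 83.5 and 80.9 TPM at PF_L and to 178.8, 227.8 and 278.0 TPM at PF_Z. The DFR unigene with the larger rise (TRINITY_DN14121_c0_g3) stood at 1.84, 0.23 and 0.69 TPM in the PF_L libraries and 87.6, 64.5 and 159 TPM in the PF_Z libraries, a 113-fold difference of means (log2 difference 5.75 ± 0.47, adjusted p = 0.00016). Of 2 unigenes of anthocyanidin synthase, which makes the colored aglycone, 1 rose. That unigene (ANS, TRINITY_DN20632_c0_g1) was at 5.2, 1.17 and 3.01 TPM in the PF_L libraries and 288, 154 and 261 TPM in the PF_Z libraries (74.9-fold, log2 difference 5.91 ± 0.36, adjusted p = 3.5e-05). For it and the DFR unigene, every PF_Z library was far above every PF_L library. The other ANS unigene (TRINITY_DN21027_c0_g2) was lower in every PF_Z library but not called, at 23.2, 21.3 and 18.3 TPM at PF_L and 17.1, 12.1 and 16.2 TPM at PF_Z (log2 difference -0.45 ± 0.19, adjusted p = 0.16). The 2 together summed to 28.4, 22.5 and 21.3 TPM at PF_L and to 305, 166 and 277 TPM at PF_Z. Of 10 tested anthocyanidin glycosyltransferases 2 rose and 1 fell, with a median of -0.01 and sums of 78.3, 90.3 and 80.3 TPM at PF_L and 158, 116 and 169 TPM at PF_Z. GT1 (TRINITY_DN20511_c0_g4), an anthocyanidin 3-O-glucosyltransferase that stabilizes the pigment with a sugar, was at 2.63, 1.37 and 1.83 TPM in the PF_L libraries and 60.9, 35.9 and 74.2 TPM in the PF_Z libraries (29.3-fold, log2 difference 4.26 ± 0.29, adjusted p = 7.1e-05). A glycosyltransferase that extends this sugar, 3GGT (TRINITY_DN20358_c0_g3), was at 6.8, 4.32 and 7.04 TPM at PF_L and 57.7, 35.4 and 47.8 TPM at PF_Z (log2 difference 2.76 ± 0.26, adjusted p = 0.00031). The glutathione transferase GSTF11 (TRINITY_DN12743_c0_g1), of the class that carries anthocyanins to the vacuole in other plants, was at 2.74, 1.14 and 2.53 TPM in the PF_L libraries and 206, 141 and 273 TPM in the PF_Z libraries. It rose 96.7-fold (log2 difference 6.04 ± 0.28, adjusted p = 8.6e-06). Of 29 glutathione transferases 4 rose (13.8%) and 2 fell (6.90%), against 2.15% and 4.70% of all tested unigenes. Without PF_L replicate 1 or 3, PF_Z replicate 1 or 2 or PF_D replicate 3 there were 2 rises.

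The branches to proanthocyanidins stayed at low levels. Leucoanthocyanidin reductase (LAR, TRINITY_DN13753_c0_g1), which makes catechin, stayed below 9 TPM, at 1.93, 1.93 and 1.14 TPM in the PF_L libraries and 4.79, 3.82 and 8.26 TPM in the PF_Z libraries (log2 difference 1.27 ± 0.29, adjusted p = 0.024). The call was lost without PF_L replicate 1, 2 or 3 or without PF_Z replicate 1. Anthocyanidin reductase, the route to epicatechin, had 3 unigenes and no call. The most abundant, ANR TRINITY_DN18130_c0_g3, was at 15.7, 11.9 and 9.77 TPM at PF_L and 18.2, 11.3 and 24 TPM at PF_Z, with overlapping stages (log2 difference 0.45 ± 0.29, adjusted p = 0.35). The plot of flavonoid enzymes shows the overlap of the stages for F3'5'H and ANR beside the gap for the other unigenes selected for it. The falling CYP75B2 and FLS unigenes and the ANS unigene that was lower at PF_Z are not drawn.

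**Figure D2:**
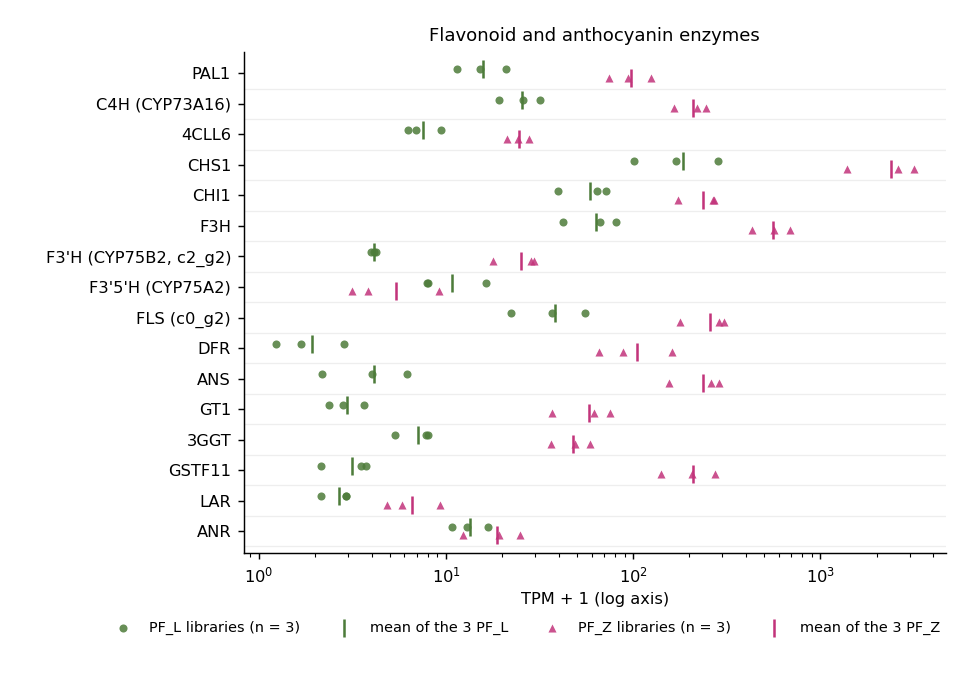
TPM + 1 on a log axis for 16 selected flavonoid unigenes in pathway order from top to bottom. No unigene called lower is drawn. Circles stand for the 3 PF_L libraries, triangles for the 3 PF_Z libraries and vertical bars for the stage means. The PF_Z libraries lie above the PF_L libraries without overlap for all but F3'5'H, whose mean was lower at PF_Z, and ANR. Of all 3280 called unigenes 3279 showed no overlap, so the gap of a called unigene is no further support.

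Of 76 MYB factors, 4 rose (5.26%) and 9 fell (11.8%), and of 90 bHLH factors 4 rose (4.44%) and 10 fell (11.1%), against 2.15% and 4.70% of all tested unigenes. The 9 MYB falls became 16 without PF_Z replicate 3. The 10 bHLH falls became 4 without PF_L replicate 2, 5 without PF_L replicate 3 and 6 without PF_Z replicate 1. The unigene whose closest protein in Nr is strawberry MYB1 (MYB3, TRINITY_DN15901_c0_g3), known from strawberry fruit as a repressor of flavonoid genes, was at 0.05, 0.59 and 0.54 TPM in the PF_L libraries and 6.71, 5.5 and 13.8 TPM in the PF_Z libraries (22.1-fold, log2 difference 2.73 ± 0.44, adjusted p = 0.0051). MYB114 TRINITY_DN13075_c1_g2, from a group that activates anthocyanin genes in Arabidopsis, was at 0.68, 0.55 and 1.05 TPM at PF_L and 11.4, 11.4 and 17.5 TPM at PF_Z (log2 difference 3.02 ± 0.21, adjusted p = 7.3e-05). A shorter unigene of that name, TRINITY_DN21029_c0_g2 (330 bp), was far more abundant but not called, at 834, 658 and 788 TPM at PF_L and 528, 513 and 1007 TPM at PF_Z (log2 difference -0.22 ± 0.27, adjusted p = 0.64). MYB305 (TRINITY_DN15202_c1_g1), of a petal and nectary subgroup of MYB factors in other species, stood at 26.8, 20.2 and 20.8 TPM in the PF_L libraries and 271, 232 and 317 TPM in the PF_Z libraries (12.1-fold, log2 difference 3.54 ± 0.16, adjusted p = 8.6e-06). Among the falls was C1 (TRINITY_DN16634_c0_g3), named for the maize anthocyanin regulator but matching a WER-like factor in Nr, at 27.1, 31.1 and 30.1 TPM in the PF_L libraries and 1.08, 2.65 and 4.11 TPM in the PF_Z libraries (11.3-fold lower, log2 difference -3.17 ± 0.34, adjusted p = 0.00061).

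A pair of the bHLH rises shared the Nr description bHLH79. BHLH79 (TRINITY_DN21463_c0_g1) was at 55.8, 41.5 and 49.7 TPM in the PF_L libraries and 197, 169 and 192 TPM in the PF_Z libraries (3.8-fold, log2 difference 1.91 ± 0.19, adjusted p = 0.0004). BPE (TRINITY_DN25467_c0_g2), whose Arabidopsis namesake limits petal size, was at 43.7, 26.6 and 38.9 TPM at PF_L and 124, 136 and 147 TPM at PF_Z (3.73-fold, log2 difference 1.90 ± 0.20, adjusted p = 0.00053). Their 3 PF_Z values were close to each other and all above PF_L.

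Of 23 tested carotenoid unigenes, 7 rose (30.4%, against 2.15% overall) and none fell, with a median log2 difference of 0.25. Leaving out 1 library at a time left 6 to 8 rises and brought 0 to 2 falls, and an adjusted p limit of 0.01 left 4 rises. Both unigenes of phytoene synthase, the entry enzyme, both of lycopene epsilon cyclase and both of beta-carotene hydroxylase were among the 7. PSY (TRINITY_DN26333_c0_g1) was at 7.88, 9.24 and 5.85 TPM in the PF_L libraries and 29.2, 43.8 and 43.1 TPM in the PF_Z libraries (5.06-fold, log2 difference 2.19 ± 0.19, adjusted p = 0.00022). The hydroxylase CA2 (TRINITY_DN20509_c1_g1), which makes xanthophylls, was below 0.3 TPM in each PF_L library and at 8.51, 4.68 and 8.24 TPM in the PF_Z libraries (log2 difference 2.71 ± 0.21, adjusted p = 0.00013). Phytoene desaturase (PDS, TRINITY_DN22717_c0_g1), between these steps, was at 30.8, 25.1 and 26.2 TPM at PF_L and 39.9, 34.3 and 35.2 TPM at PF_Z, without overlap but under the fold limit (log2 difference 0.40 ± 0.15, adjusted p = 0.13). The cleavage enzyme CCD1 (TRINITY_DN21181_c0_g1), among the 2 most abundant of the list, was at 139.8, 126 and 139 TPM at PF_L and 123, 90.5 and 117 TPM at PF_Z and not called (log2 difference -0.30 ± 0.19, adjusted p = 0.34).

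The chlorophyll list of 47 had 3 rises (6.38%) and 6 falls (12.8%), against 2.15% and 4.70% of all tested unigenes. GSA (TRINITY_DN21875_c1_g2), for an early step of chlorophyll synthesis, was at 436, 414 and 453 TPM in the PF_L libraries and 235, 125 and 214 TPM in the PF_Z libraries (log2 difference -1.23 ± 0.23, adjusted p = 0.011), and lost its call under scaling by median ratios and without PF_Z replicate 2. The list had no called fall under median ratios, 2 without PF_L replicate 1 or PF_Z replicate 2, and 4 without PF_L replicate 2, PF_L replicate 3, PF_Z replicate 3 or PF_D replicate 3. The 2 breakdown genes named next kept their calls in all of these. Chlorophyllase CLH1 (TRINITY_DN22859_c0_g1) was at 4.97, 2.33 and 3.35 TPM in the PF_L libraries and 27.3, 18.7 and 22.6 TPM in the PF_Z libraries (6.44-fold, log2 difference 2.42 ± 0.22, adjusted p = 0.00029). SGR1 (TRINITY_DN26583_c0_g2), the STAY-GREEN protein that removes magnesium from chlorophyll, was at 3.54, 4.91 and 4.43 TPM at PF_L and 23.3, 15.1 and 11.6 TPM at PF_Z (3.88-fold, log2 difference 1.69 ± 0.23, adjusted p = 0.0021). Of 28 light-harvesting unigenes, 3 fell (10.7%, against 4.70% of all tested unigenes) and none rose, with a median of -0.78. One of the 3, lhcA-P4 (TRINITY_DN16844_c0_g1), was at 448, 252 and 303 TPM at PF_L and 183, 106 and 64.1 TPM at PF_Z (log2 difference -1.58 ± 0.44, adjusted p = 0.048), and lost its call under 14 of 21 alternatives. Of the 28, none was called lower without PF_L replicate 1, and 1 was without PF_L replicate 2 or 3, PF_Z replicate 2 or 3 or PF_D replicate 3.

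Of 64 unigenes of DNA replication, 26 fell (40.6%, against 4.70% of all tested unigenes), none rose, and the median log2 difference was -0.84. Without 1 library, 20 to 27 fell. The MCM helicase, which opens the double strand at replication origins, had 8 unigenes, 5 of which fell, and all 8 were lower in every PF_Z library than in any PF_L library, as were 23.2% of all tested unigenes. MCM5 (TRINITY_DN16698_c0_g1) stood at 13.1, 16.9 and 14.9 TPM in the PF_L libraries and 0.65, 1.74 and 1.73 TPM in the PF_Z libraries (10.9-fold lower, log2 difference -2.78 ± 0.26, adjusted p = 0.00031). The MCM3 unigene ROA2 (TRINITY_DN26912_c0_g1) was at 13.8, 15.8 and 14.7 TPM at PF_L and 0.57, 1.3 and 1.3 TPM at PF_Z (14-fold lower, log2 difference -2.96 ± 0.27, adjusted p = 0.00027). The polymerase subunit POLA2 (TRINITY_DN16988_c0_g1), which starts new strands with primase, was at 8.08, 9.46 and 7.26 TPM at PF_L and 0.14, 1.0 and 0.94 TPM at PF_Z (11.9-fold lower, log2 difference -2.49 ± 0.29, adjusted p = 0.001). Of 5 unigenes of ribonucleotide reductase, which supplies the deoxynucleotides, 4 fell and together they went from 194, 217.5 and 226 TPM to 56.1, 49.8 and 82.0 TPM. The clamp loader, replication factor C, changed less. None of its 7 unigenes was called, and RFC3 (TRINITY_DN25024_c0_g1) was at 118, 120.4 and 135 TPM at PF_L and 77.7, 59.1 and 76.4 TPM at PF_Z, without overlap but short of the 2-fold limit (log2 difference -0.81 ± 0.19, adjusted p = 0.028).

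The core histone list had a summed level of 4161, 5326 and 4452 TPM at PF_L and 1568, 1788 and 1883 TPM at PF_Z. Of 35 histone unigenes tested, 24 fell (68.6%, against 4.70% of all tested unigenes) and none rose. The median was -2.0, and 22 to 27 fell when 1 library was left out. Histone H2A.1 (TRINITY_DN24029_c0_g1) stood at 64.2, 99.9 and 75.3 TPM in the PF_L libraries and 3.62, 5.61 and 5.62 TPM in the PF_Z libraries (16.1-fold lower, log2 difference -3.76 ± 0.25, adjusted p = 6.4e-05). A histone H4 unigene (TRINITY_DN16785_c0_g2), among the 2 most abundant of the list, was at 614, 920.1 and 773 TPM in the PF_L libraries and 88.7, 114 and 109 TPM in the PF_Z libraries (7.4-fold lower, log2 difference -2.87 ± 0.21, adjusted p = 0.0001). HTR4 (TRINITY_DN20722_c0_g1), a replacement histone H3.3 of the kind made outside DNA replication too, was not called, at 897, 893 and 875 TPM at PF_L and 733.65, 799 and 799 TPM at PF_Z, lower in each PF_Z library but by 1.14-fold only (log2 difference -0.19 ± 0.15, adjusted p = 0.44). Histone copies are near-identical, so reads may have been shared among the unigenes of a class, and the class sums are the safer values. For H4 the sum went from 1234, 1867.5 and 1474 TPM to 256, 287 and 309 TPM, and for H3 from 1540.0, 1779 and 1583 TPM to 889, 1016 and 973 TPM. HTR4 is itself an H3, and 11 of the 15 tested H3 unigenes fell, with a median log2 difference of -2.48. The classes were drawn by description and are not parts of the list total. The chromatin protein HMGB6 (TRINITY_DN17156_c0_g3) was at 52.7, 72.8 and 67.4 TPM at PF_L and 2.56, 6.47 and 5.29 TPM at PF_Z (13.5-fold lower, log2 difference -3.55 ± 0.28, adjusted p = 0.00014).

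Of 34 cyclins and cyclin-dependent kinases 19 fell (55.9%, against 4.70% of all tested unigenes) and none rose, with a median of -1.79. Without 1 library 18 to 20 fell. Falls occurred in 4 of 8 A-type cyclins, which act in DNA replication and mitosis, in 5 of 9 mitotic B-type cyclins, and in 6 of 9 D-type cyclins, which start the cycle. The mitotic cyclin S13-6 (TRINITY_DN14775_c0_g2) stood at 38.3, 52.4 and 42.4 TPM in the PF_L libraries and 2.92, 6.84 and 5.46 TPM in the PF_Z libraries (8.74-fold lower, log2 difference -2.95 ± 0.26, adjusted p = 0.00022). CKS1 (TRINITY_DN11050_c0_g1), a small partner of the cyclin-dependent kinases and among the 2 most abundant of the list, was not called, at 131, 127 and 119.5 TPM at PF_L and 84.5, 92 and 109 TPM at PF_Z (log2 difference -0.41 ± 0.14, adjusted p = 0.089). MYB3R-1 (TRINITY_DN26701_c0_g1), of the MYB class that activates mitotic genes, was at 13.1, 18.6 and 19.5 TPM in the PF_L libraries and 2.69, 2.2 and 4.14 TPM in the PF_Z libraries (5.68-fold lower, log2 difference -2.18 ± 0.29, adjusted p = 0.0018).

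Of 173 mitotic and kinesin unigenes, 59 fell (34.1%) and 3 rose (1.73%), with a median of -0.55, and 45 to 62 fell when 1 library was left out. Among 121 kinesins, the motors of microtubules, 40 fell (33.1%, against 4.70% of all tested unigenes) and 3 rose (2.48%, against 2.15%). KIN14S (TRINITY_DN25927_c0_g1) was at 32.2, 39.5 and 39.6 TPM in the PF_L libraries and 2.5, 2.38 and 4.25 TPM in the PF_Z libraries (12.2-fold lower, log2 difference -3.26 ± 0.24, adjusted p = 0.0001). KIN4A (TRINITY_DN21421_c0_g1), among the 2 most abundant of the list and known in Arabidopsis for wall deposition, overlapped between the stages, at 90.8, 71.7 and 71.8 TPM at PF_L and 76.2, 76.8 and 83.6 TPM at PF_Z (log2 difference 0.02 ± 0.14, adjusted p = 0.94). KIN8B (TRINITY_DN22294_c1_g1) was 1 of the 3 rises, at 22.6, 16.9 and 20.8 TPM at PF_L and 59, 35.3 and 44.1 TPM at PF_Z (log2 difference 1.14 ± 0.22, adjusted p = 0.011), a call lost without PF_Z replicate 1, when none of the 3 remained. The tubulin TUBB1 (TRINITY_DN18592_c0_g7) went from 265, 309 and 294 to 37.2, 44.9 and 83.8 TPM (5.23-fold lower, log2 difference -2.45 ± 0.26, adjusted p = 0.0006), while TUBA1 (TRINITY_DN16768_c0_g2) overlapped between the stages, at 532, 523 and 588 TPM at PF_L and 460.1, 358 and 653 TPM at PF_Z (log2 difference -0.20 ± 0.24, adjusted p = 0.63). Of 74 tubulins, actins and related unigenes 3 fell (4.05%, against 4.70% of all tested unigenes) and 1 rose (1.35%, against 2.15%). There were 5 falls and 2 rises without PF_Z replicate 3, and no rise without any 1 PF_L library or PF_Z replicate 2. Cytosolic ribosomal proteins, another mark of growing tissue, had 196 tested unigenes and no call in either direction. Without the 2-fold limit, 61 of the 196 were lower at an adjusted p under 0.05 (limma), against 3266 of all 47924. Their median was -0.40 with TPM as deposited, and 139 of the 196 were lower in every PF_Z library than in any PF_L library (23.2% overall).

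Of 49 TCP, SPL and GRF unigenes, 18 fell (36.7%, against 4.70% of all tested unigenes) and none rose, with a median of -0.72. Between 11 (without PF_Z replicate 1) and 20 (without PF_Z replicate 3) fell when 1 library was left out. GRF factors and their coactivator GIF1 promote cell proliferation in leaves and petals of Arabidopsis, and 8 of 13 such unigenes fell (5 without PF_L replicate 2 or PF_Z replicate 1). GIF1 (TRINITY_DN16046_c0_g1) stood at 70.3, 84.4 and 72.1 TPM in the PF_L libraries and 12.1, 11.2 and 16.8 TPM in the PF_Z libraries (5.67-fold lower, log2 difference -2.43 ± 0.23, adjusted p = 0.00032). GRF1 (TRINITY_DN15356_c0_g2) was at 7.3, 11.4 and 13.9 TPM at PF_L and 1.15, 0.74 and 1.18 TPM at PF_Z (10.6-fold lower, log2 difference -2.52 ± 0.32, adjusted p = 0.0015). GRF3 (TRINITY_DN14620_c0_g1) was at 9.05, 16.1 and 11.3 TPM at PF_L and 0.55, 2.29 and 1.5 TPM at PF_Z (8.39-fold lower, log2 difference -2.46 ± 0.32, adjusted p = 0.0019). All 3 were well below their PF_L range in each PF_Z library. SPL4 (TRINITY_DN20217_c0_g1), an SPL factor of flowering and among the 2 most abundant of the list, had 416, 364 and 351 TPM at PF_L and 149, 145 and 225 TPM at PF_Z. Its stages did not overlap, but it was not called (log2 difference -1.15 ± 0.48, adjusted p = 0.16). SPL12 (TRINITY_DN28004_c1_g2) overlapped between the stages, at 270.2, 227 and 222 TPM at PF_L and 225, 168 and 345 TPM at PF_Z (log2 difference -0.02 ± 0.23, adjusted p = 0.96).

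AINTEGUMENTA (ANT) and its AIL relatives keep organ cells competent to divide, and 8 of 9 unigenes fell (88.9%, against 4.70% of all tested unigenes). That count was 4 to 7 when 1 library was left out, with 4 without PF_L replicate 2, PF_L replicate 3 or PF_Z replicate 1 and 5 without PF_L replicate 1 or PF_Z replicate 2. AIL5 (TRINITY_DN18285_c0_g1) stood at 56, 73 and 61.8 TPM in the PF_L libraries and 8.6, 10.8 and 20.4 TPM in the PF_Z libraries (4.8-fold lower, log2 difference -2.26 ± 0.29, adjusted p = 0.0016). ANT itself (TRINITY_DN14632_c0_g1) was at 4.2, 6.84 and 6.12 TPM at PF_L and 0.05, 0.56 and 0.63 TPM at PF_Z (log2 difference -2.25 ± 0.30, adjusted p = 0.002), a fall not called with 5 TPM added. WOX1 (TRINITY_DN25638_c0_g1), a homeobox factor of lateral blade growth, was at 12.6, 18.4 and 12.4 TPM in the PF_L libraries and 0, 0.84 and 0.16 TPM in the PF_Z libraries (43.5-fold lower, log2 difference -3.57 ± 0.30, adjusted p = 0.00019), and it was the only fall among 4 WUSCHEL-related factors. NAC098 (TRINITY_DN14430_c0_g1), a relative of the organ boundary factor CUP-SHAPED COTYLEDON2, was at 28.9, 29.6 and 24.7 TPM at PF_L and 1.07, 1.88 and 2.53 TPM at PF_Z (15.2-fold lower, log2 difference -3.37 ± 0.25, adjusted p = 0.0001). Of 11 zinc finger homeodomain unigenes 10 fell, 9 or 10 without 1 library. The 1 exception, ZHD9 (TRINITY_DN20815_c0_g3), overlapped between the stages, at 113, 109 and 92.3 TPM at PF_L and 84.1, 62.3 and 112 TPM at PF_Z (log2 difference -0.32 ± 0.22, adjusted p = 0.39). KNAT7 (TRINITY_DN25578_c0_g1), a homeobox factor of secondary wall formation in Arabidopsis, rose against this pattern, at 50.6, 55.1 and 39 TPM in the PF_L libraries and 121, 96.7 and 196 TPM in the PF_Z libraries (2.86-fold, log2 difference 1.45 ± 0.24, adjusted p = 0.0057). Of 78 tested homeobox and ZHD unigenes 2 rose (2.56%) and 16 fell (20.5%), against 2.15% and 4.70% of all tested unigenes, and the highest log2 difference was 4.15. The plot of division genes and growth factors sets the members that fell beside those not called and KNAT7.

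**Figure D3:**
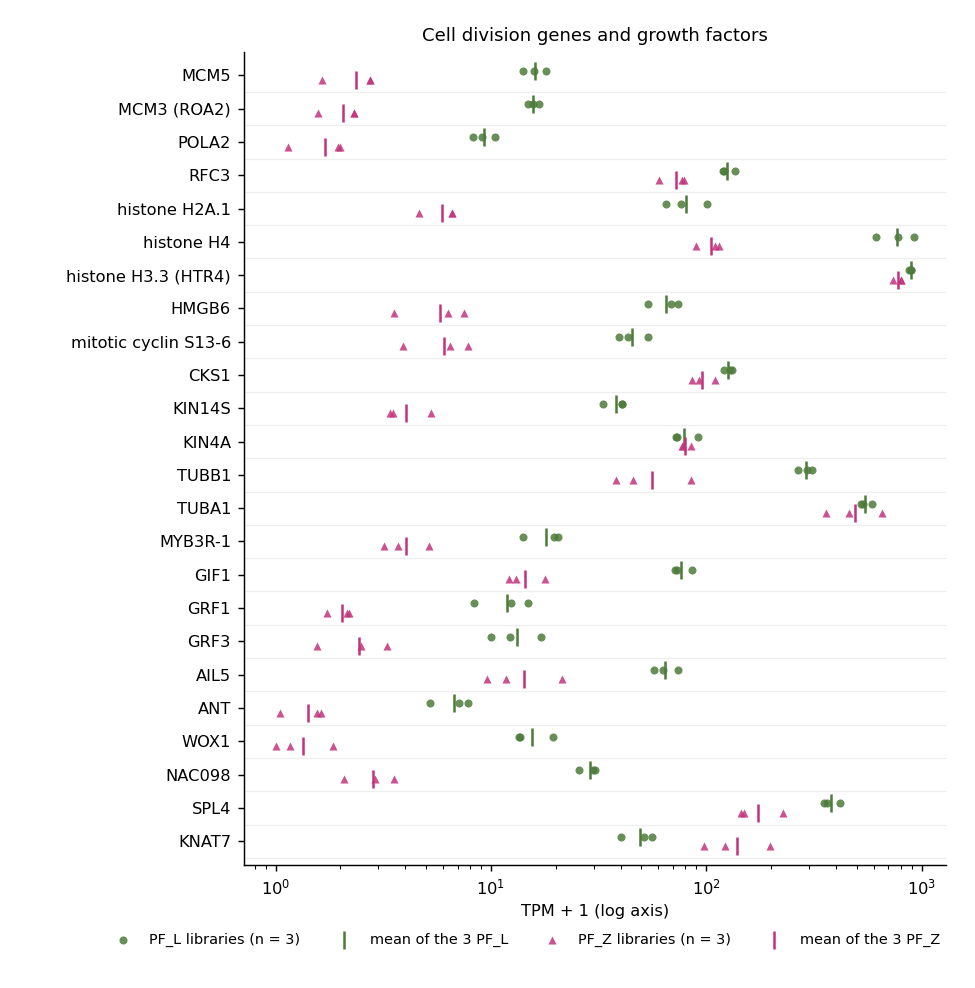
TPM + 1 on a log axis for 15 unigenes of replication, chromatin and mitosis and 9 growth factors, with circles for the 3 PF_L libraries, triangles for the 3 PF_Z libraries and vertical bars for the stage means. Most PF_Z values lie far to the left of PF_L, HTR4, CKS1, KIN4A and TUBA1 were not called, and KNAT7 lies to the right.

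Among 58 cuticle and wax unigenes, 12 rose (20.7%) and 8 fell (13.8%), against 2.15% and 4.70% of all tested unigenes, and the median was 0.04. The 12 rises were 11 or 12 without 1 library, and the 8 falls were 5 without PF_L replicate 2, PF_L replicate 3, PF_Z replicate 1 or PF_Z replicate 2. PDF1 (TRINITY_DN13966_c0_g1), a wall protein of the outermost cell layer, stood at 472, 540.1 and 504 TPM in the PF_L libraries and 35.8, 76.6 and 72.6 TPM in the PF_Z libraries (log2 difference -3.09 ± 0.30, adjusted p = 0.00034). CYP77A4 (TRINITY_DN17679_c0_g1), a fatty acid oxidase, was at 115, 152 and 122 TPM at PF_L and 3.99, 8.2 and 8.04 TPM at PF_Z (log2 difference -4.12 ± 0.25, adjusted p = 3.5e-05). FAR1 (TRINITY_DN13658_c0_g1), a fatty acyl-CoA reductase that makes fatty alcohols, was at 11.1, 30.8 and 16.3 TPM at PF_L and 1.28, 1.4 and 1.52 TPM at PF_Z (13.8-fold lower, log2 difference -2.97 ± 0.33, adjusted p = 0.00074). Genes of cutin monomers and alkanes were among the members that rose. CYP86A22 (TRINITY_DN27437_c0_g1), a fatty acid hydroxylase of the kind that makes cutin in petunia stigma, was at 29.5, 20.2 and 23 TPM in the PF_L libraries and 132, 95.5 and 150.1 TPM in the PF_Z libraries (5.19-fold, log2 difference 2.32 ± 0.21, adjusted p = 0.00024). CER1 (TRINITY_DN28427_c4_g2), which makes wax alkanes, was at 30.1, 31.7 and 25.8 TPM at PF_L and 78.9, 85.2 and 157 TPM at PF_Z (3.67-fold, log2 difference 1.77 ± 0.24, adjusted p = 0.0019), with the highest value in PF_Z replicate 3.

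Unigenes of the same name or family took opposite directions. WIN1, an ERF factor that switches on cutin and wax genes in Arabidopsis, had an abundant unigene that rose and a scarce one that fell. The first (TRINITY_DN16455_c0_g2) stood at 3.67, 2.53 and 3.44 TPM in the PF_L libraries and 66.1, 48.1 and 84.1 TPM in the PF_Z libraries (20.6-fold, log2 difference 3.97 ± 0.22, adjusted p = 2.7e-05). The second (TRINITY_DN14352_c1_g4) was at 2.5, 9.8 and 5.52 TPM at PF_L and 0.68, 0.55 and 1.09 TPM at PF_Z (log2 difference -1.83 ± 0.39, adjusted p = 0.019), a fall not called without PF_L replicate 2, PF_L replicate 3, PF_Z replicate 1 or PF_Z replicate 2. GDSL esterases, a family that includes cutin synthases and other lipases, had 4 rises (6.45%) and 10 falls (16.1%) among 62. Of all tested unigenes 2.15% rose and 4.70% fell. Without PF_D replicate 2 there were 8 GDSL rises. At5g03810 (TRINITY_DN13446_c0_g1) fell from 155, 160.2 and 148 TPM at PF_L to 23.3, 32.9 and 47.4 TPM at PF_Z (4.48-fold lower, log2 difference -2.19 ± 0.24, adjusted p = 0.0007). At1g20120 (TRINITY_DN27366_c0_g1) was listed at 0 in 2 PF_L libraries and at 0.34 TPM in the other, against 48.6, 21.8 and 33.5 TPM in the PF_Z libraries (log2 difference 4.94 ± 0.27, adjusted p = 2.5e-05). LTL1 (TRINITY_DN19295_c0_g3), a fragment of 277 bp, was among the 2 most abundant GDSL unigenes, at 7916, 4040.0 and 6673 TPM at PF_L and 16403, 9541 and 18213 TPM at PF_Z, and was not called (log2 difference 1.25 ± 1.34, adjusted p = 0.59). Lipid-transfer proteins, which carry lipids to the surface, showed the same split between abundant members. One (TRINITY_DN14065_c2_g1) was at 307, 257 and 249 TPM at PF_L and 1514, 836 and 1022 TPM at PF_Z (4.14-fold higher, log2 difference 2.01 ± 0.23, adjusted p = 0.00095). Another (TRINITY_DN1651_c0_g1) was at 719.6, 731 and 651 TPM at PF_L and 252, 165 and 142 TPM at PF_Z (3.75-fold lower, log2 difference -1.94 ± 0.25, adjusted p = 0.0017).

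The putative cell wall protein At2g20870 (TRINITY_DN19296_c0_g2), of no known enzyme activity, stood at 373, 168 and 241 TPM in the PF_L libraries and 22811, 11496 and 16594 TPM in the PF_Z libraries (log2 difference 6.04 ± 0.52, adjusted p = 0.00019), with PF_Z replicate 1 highest and replicate 2 lowest. Of 130 pectin enzymes 9 rose (6.92%) and 8 fell (6.15%), against 2.15% and 4.70% of all tested unigenes, with 14 rises after quantile normalization. The rises numbered 5 without PF_L replicate 3, and the falls 4 without PF_L replicate 2 or PF_Z replicate 2 and 5 without PF_L replicate 3 or PF_Z replicate 1. PME68 (TRINITY_DN15760_c0_g1), a pectinesterase, was at 11.7, 19.4 and 22.7 TPM at PF_L and 0.42, 1.06 and 0.54 TPM at PF_Z (26.6-fold lower, log2 difference -3.47 ± 0.29, adjusted p = 0.00019), while a polygalacturonase (TRINITY_DN16128_c0_g3), which cuts pectin chains, was at 0.74, 1.52 and 2.13 TPM at PF_L and 10.8, 9.53 and 7.33 TPM at PF_Z (6.29-fold higher, log2 difference 2.08 ± 0.26, adjusted p = 0.0015). Xyloglucan endotransglucosylases (XTH) cut and rejoin the tethers between cellulose fibrils. Of 18, 4 rose (22.2%, against 2.15%) and 1 fell (5.56%, against 4.70%). There was a single rise without PF_L replicate 1 or 2 or PF_Z replicate 1 or 2, and 2 without PF_D replicate 3. XTH32 (TRINITY_DN18267_c0_g2) was at 8.48, 12.5 and 9.09 TPM at PF_L and 0.46, 0.95 and 1.56 TPM at PF_Z (10.1-fold lower, log2 difference -2.49 ± 0.29, adjusted p = 0.0009). XTH16 (TRINITY_DN14714_c0_g1) was at 10.2, 17.2 and 34.4 TPM at PF_L and 59.1, 79.2 and 71 TPM at PF_Z (log2 difference 1.86 ± 0.49, adjusted p = 0.04), and lost its call under 10 of 21 alternatives. Cellulose synthase-like D proteins, which act in tip-growing and dividing cells, had 4 rises and 4 falls among 12 (33.3% each, against 2.15% and 4.70%). CSLD2 TRINITY_DN13905_c1_g2 was at 8.88, 11.3 and 11.3 TPM at PF_L and 0.81, 1.27 and 0.9 TPM at PF_Z (10.6-fold lower, log2 difference -2.53 ± 0.24, adjusted p = 0.00034), and CSLD3 TRINITY_DN23474_c0_g1 at 16.6, 30.7 and 37 TPM at PF_L and 137, 116 and 73.1 TPM at PF_Z (3.88-fold higher, log2 difference 1.94 ± 0.35, adjusted p = 0.0087). Expansins, which loosen walls as cells enlarge, had 1 rise and 1 fall among 21 (4.76% each, against 2.15% and 4.70% of all tested unigenes). The rise was lost without PF_L replicate 2. The fall was lost without any 1 PF_L library, PF_Z replicate 1 or 2 or PF_D replicate 3. Among the 2 most abundant, EXPA6 (TRINITY_DN20110_c1_g1) overlapped between the stages at 172, 319 and 236 TPM at PF_L and 278, 247 and 486 TPM at PF_Z (log2 difference 0.45 ± 0.28, adjusted p = 0.34).

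**Figure D4:**
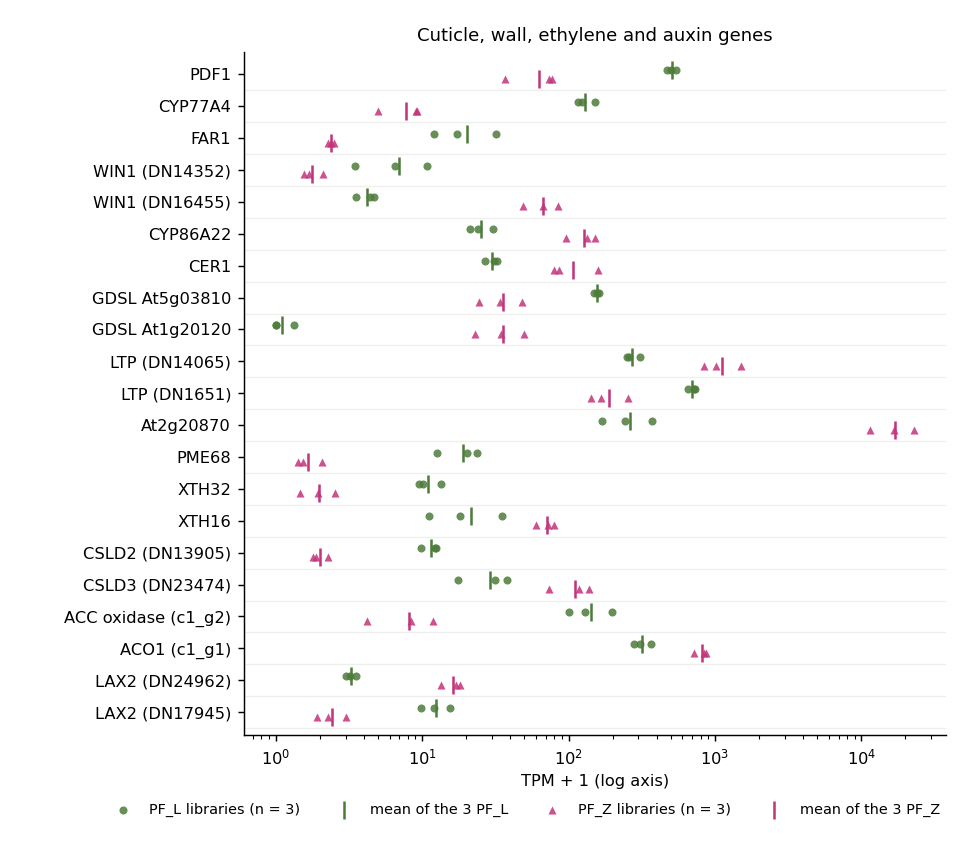
TPM + 1 on a log axis for 21 unigenes of the cuticle, the cell wall, ethylene synthesis and auxin transport, with circles for the 3 PF_L libraries, triangles for the 3 PF_Z libraries and vertical bars for the stage means. Unigenes of the same name or family (WIN1, GDSL, LTP, XTH, CSLD, ACC oxidase, LAX2) stand next to each other and differ in direction.

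Ethylene is made by ACC synthase and ACC oxidase, and a pair of ACC oxidase unigenes moved in opposite directions. An ACC oxidase 1 unigene (TRINITY_DN21701_c1_g2) stood at 99.2, 198 and 129 TPM in the PF_L libraries and 3.2, 10.9 and 7.38 TPM in the PF_Z libraries (19.8-fold lower, log2 difference -4.20 ± 0.36, adjusted p = 0.0002), the largest called fall of all 2251. ACO1 (TRINITY_DN21701_c1_g1), from the same assembly cluster, was at 279, 307 and 367 TPM in the PF_L libraries and 719, 865 and 847 TPM in the PF_Z libraries (2.55-fold higher, log2 difference 1.35 ± 0.18, adjusted p = 0.0022), and the summed level of the 6 ACC oxidase unigenes went from 389.6, 513 and 504 TPM to 731, 886 and 876 TPM. ACS1 (TRINITY_DN18331_c0_g1), an ACC synthase, was at 0.08, 1.02 and 0.63 TPM at PF_L and 3.98, 7.75 and 4.05 TPM at PF_Z (log2 difference 1.98 ± 0.36, adjusted p = 0.009), not called with 5 TPM added. Of 44 ethylene unigenes 6 rose (13.6%) and 1 fell (2.27%), against 2.15% and 4.70% of all tested unigenes. There were 4 to 8 rises when 1 library was left out, and 2 falls without PF_Z replicate 3.

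Auxin carriers did the same. LAX2 TRINITY_DN24962_c0_g1, an importer, was at 2.2, 2.53 and 2.04 TPM in the PF_L libraries and 15.9, 12.4 and 17.2 TPM in the PF_Z libraries (6.73-fold higher, log2 difference 2.30 ± 0.16, adjusted p = 7.3e-05). LAX2 TRINITY_DN17945_c2_g3 was at 8.88, 14.5 and 11.1 TPM at PF_L and 0.92, 1.27 and 2.04 TPM at PF_Z (8.15-fold lower, log2 difference -2.38 ± 0.26, adjusted p = 0.00071). The AUX/IAA repressor AUX28 (TRINITY_DN20042_c0_g2) was at 62.8, 48.4 and 60.8 TPM at PF_L and 187, 162 and 205 TPM at PF_Z (3.22-fold higher, log2 difference 1.67 ± 0.16, adjusted p = 0.00031). These 3 showed no overlap between the stages, and neither did SAUR41 (TRINITY_DN16599_c0_g2), a small auxin-induced protein, at 9.06, 11 and 7.88 TPM at PF_L and 0.31, 0.43 and 2.49 TPM at PF_Z (log2 difference -2.45 ± 0.36, adjusted p = 0.0033). Of 69 unigenes of auxin response factors, transport and conjugation, 10 fell (14.5%) and 2 rose (2.90%), against 4.70% and 2.15% of all tested unigenes, with 1 rise without PF_L replicate 2 or PF_Z replicate 3, and of the 38 response factors 5 fell (3 without PF_L replicate 2).

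The 58 cytokinin genes had 11 falls (19.0%, against 4.70% of all tested unigenes) and 1 rise (1.72%, against 2.15%). The highest log2 difference of the list was 5.68, and at least 1 rise was called under every alternative. The count of falls depended on single libraries. The falls numbered 3 without PF_L replicate 2, 4 without PF_L replicate 1 or PF_Z replicate 2, and 5 without PF_L replicate 3 or PF_Z replicate 1, and there were 4 rises without PF_Z replicate 3. LOG3 (TRINITY_DN11713_c0_g1), which releases active cytokinin, stood at 40.1, 42 and 35.6 TPM in the PF_L libraries and 7.74, 11.4 and 14.2 TPM in the PF_Z libraries (3.53-fold lower, log2 difference -1.77 ± 0.27, adjusted p = 0.0041). CKX11 (TRINITY_DN23044_c0_g11), a dehydrogenase that degrades cytokinin, was at 6.15, 7.99 and 7.39 TPM at PF_L and 0.32, 0.92 and 1.1 TPM at PF_Z (9.2-fold lower, log2 difference -2.22 ± 0.28, adjusted p = 0.0014). Both calls were kept under every alternative, and both enzymes, with opposite actions on the hormone, were lower at PF_Z. GAST1 (TRINITY_DN12695_c0_g1), of a family of small gibberellin-regulated proteins, was at 19.5, 17.8 and 17 TPM at PF_L and 81, 51.1 and 85.8 TPM at PF_Z (4.01-fold higher, log2 difference 1.91 ± 0.26, adjusted p = 0.0021).

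Of 63 terpene unigenes 8 rose (12.7%) and 1 fell (1.59%), against 2.15% and 4.70% of all tested unigenes. The median was 0.32, with 7 to 10 rises when 1 library was left out. There were 2 falls without PF_L replicate 1 and none without PF_L replicate 2 or 3 or PF_Z replicate 2 or 3. Germacrene and farnesene synthases, which make sesquiterpenes, gave 4 of the 8 rises, and the 2 germacrene rises became 4 without PF_Z replicate 1. A germacrene D synthase (TRINITY_DN24179_c0_g1) stood at 7.17, 22.4 and 12.4 TPM in the PF_L libraries and 148, 367 and 354 TPM in the PF_Z libraries (20.7-fold, log2 difference 4.30 ± 0.44, adjusted p = 0.00047). SSTLH1 (TRINITY_DN20659_c1_g3), described as a germacrene B synthase, was at 0.31, 0.49 and 0.2 TPM at PF_L and 6.98, 12.2 and 13.9 TPM at PF_Z (log2 difference 3.13 ± 0.39, adjusted p = 0.0014). In both, replicate 2 was the highest of the PF_L libraries, and replicate 1 the lowest of the PF_Z libraries. Both farnesene synthases rose too, and together went from 2.71, 10.6 and 9.55 TPM to 43.9, 44.9 and 28.2 TPM. SQE2 (TRINITY_DN18903_c1_g5), a squalene epoxidase of the sterol route, was at 1.63, 4.7 and 7.83 TPM at PF_L and 47, 40.5 and 12.7 TPM at PF_Z (log2 difference 2.56 ± 0.55, adjusted p = 0.019), with a low PF_Z replicate 3 and a call lost without PF_L replicate 1 or 2 or PF_Z replicate 1 or 2.

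Sugar, starch and water genes changed one by one. SWEET9 (TRINITY_DN24233_c0_g1), a sugar exporter of nectaries in other species, was at 61.6, 79.7 and 74.9 TPM in the PF_L libraries and 661, 280.0 and 239 TPM in the PF_Z libraries (5.46-fold, log2 difference 2.29 ± 0.34, adjusted p = 0.0034), with PF_Z replicate 1 more than 2 times the others. SUS4 (TRINITY_DN22613_c0_g3), a sucrose synthase, was at 132, 112 and 121 TPM at PF_L and 27.3, 46.7 and 68.4 TPM at PF_Z (log2 difference -1.43 ± 0.31, adjusted p = 0.02), a fall lost without any 1 of the PF_L libraries and without PF_Z replicate 1 or 2. APL3 (TRINITY_DN8851_c0_g1, 301 bp), a large subunit of ADP-glucose pyrophosphorylase, the first enzyme of starch synthesis, was at 3.28, 3.55 and 3.14 TPM in the PF_L libraries and 30.1, 37.7 and 48.6 TPM in the PF_Z libraries (11.7-fold, log2 difference 3.18 ± 0.26, adjusted p = 0.00017). Of 7 unigenes of that enzyme 3 rose and none fell (1 rise without PF_Z replicate 3, 2 without PF_L replicate 2). The starch synthase WAXY (TRINITY_DN27966_c1_g1) was at 227, 197 and 189.8 TPM at PF_L and 256, 228 and 292 TPM at PF_Z and not called (log2 difference 0.33 ± 0.16, adjusted p = 0.21). Aquaporins, the water channels, had 2 rises and 2 falls among 20 (10.0% each, against 2.15% and 4.70% of all tested unigenes). There was 1 fall without any 1 PF_L library or PF_Z replicate 1. NIP1-1 (TRINITY_DN24247_c0_g1) was at 15.1, 9.14 and 10.6 TPM in the PF_L libraries and 104, 65.4 and 93.4 TPM in the PF_Z libraries (7.53-fold, log2 difference 2.81 ± 0.22, adjusted p = 0.00013). PIP1-3 (TRINITY_DN23278_c0_g5), of the plasma membrane, was at 236, 232 and 226 TPM at PF_L and 77.1, 97.8 and 107 TPM at PF_Z (2.47-fold lower, log2 difference -1.31 ± 0.19, adjusted p = 0.0032), and near-identical copies may share its reads. PIP2-7 (TRINITY_DN19407_c0_g1), among the 2 most abundant aquaporins, was below its PF_L range in each PF_Z library, at 2635, 1855 and 2439.6 TPM at PF_L and 1019.8, 1319 and 1341 TPM at PF_Z, but not called (log2 difference -0.91 ± 0.27, adjusted p = 0.065).

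The bars of calls by list set these groups side by side. The share that fell was above 30% for histones, cyclins, DNA replication, TCP, SPL and GRF factors and the mitosis list, and the share that rose was above 20% for early and late flavonoid genes, carotenoid genes, cuticle genes and XTH. The lists overlap in places, and they were chosen with results of these libraries known, so their counts are descriptions.

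**Figure D5:**
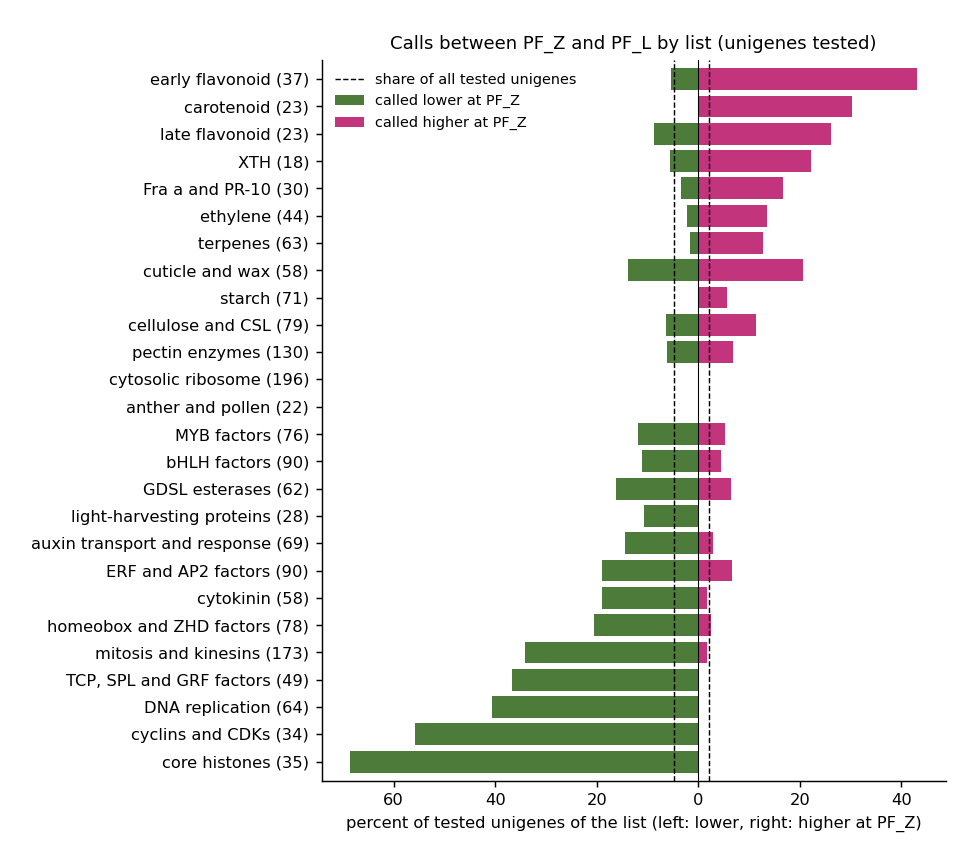
Percent of the tested unigenes of 26 lists called lower (left) or higher (right) at PF_Z, with the number tested in parentheses and dashed lines at the shares of all 47924 tested unigenes, 4.70% lower and 2.15% higher. Histones reach 68.6% lower at the bottom and early flavonoid genes 43.2% higher at the top.

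Single unigenes outside these groups changed as much. ADS3 (TRINITY_DN14016_c0_g1), a chloroplast fatty acid desaturase, stood at 191, 253 and 205 TPM in the PF_L libraries and 5.06, 18.1 and 17.6 TPM in the PF_Z libraries (15.9-fold lower, log2 difference -4.06 ± 0.38, adjusted p = 0.0003). UGT82A1 (TRINITY_DN22579_c0_g1), a glycosyltransferase of unknown substrate, was at 7.34, 10.8 and 7.45 TPM at PF_L and 90.8, 158 and 132 TPM at PF_Z (14.9-fold higher, log2 difference 3.73 ± 0.24, adjusted p = 5.6e-05). The largest rise of all belonged to a unigene of 566 bp with neither a gene name nor a protein description, TRINITY_DN23919_c1_g2, at 0.48, 0.33 and 0.09 TPM in the PF_L libraries and 167, 122 and 149 TPM in the PF_Z libraries (log2 difference 6.82 ± 0.34, adjusted p = 1.3e-05). Of the 18033 tested unigenes without a Nr description, 263 rose and 574 fell, and of the 29891 with one, 766 rose and 1677 fell. Listed at 0 in all PF_L libraries and at 1 TPM or more in all PF_Z libraries were 38 unigenes, and 80 showed the reverse. Over the next stage, 427 of the 1029 rises had a still higher mean at PF_D, and 1497 of the 2251 falls a still lower one. These counts use PF_Z on both sides and are given as a description.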

How the data were processed

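The deposited table holds TPM values per unigene and library, which the authors made from poly(A) RNA of 9 petal libraries after a de novo Trinity assembly in which the longest transcript of a cluster was kept as the unigene and named with DIAMOND. The program that estimated TPM is not given in the sources used here. The submitters' processing notes also list Bowtie, HISAT2, StringTie and a mouse genome build with no role. TPM keeps no counts, so depth and counting error cannot be read from the values. The study lists the reads of each library, and PF_L replicate 1 had the fewest of the 9. Besides TPM, the deposited unigene lengths were used.

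Unigenes that reached 1 TPM in 3 or more libraries were compared as log2(TPM + 1) in limma 3.58.1 under R 4.3.3, with 1 mean per stage, a variance trend and Benjamini-Hochberg adjustment over all tested unigenes. SE is the moderated standard error of a log2 difference, and p-values are two-sided. Folds are ratios of mean TPM. Summaries and plots used Python 3.11.15, pandas 2.3.3 and matplotlib 3.10.9. The code was tested on simulated data.

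The comparison, the gene lists and the members were chosen with earlier results of these data known. Genes were named where they were among the 15 largest named rises or falls, among the 3 largest rises or falls or the 2 most abundant members of a list, of an enzyme or factor the study names, or a tissue marker. Outside this rule, and chosen after their values were seen, were PAL1, CYP73A16, 4CLL6, the scarcer WIN1, ZHD9, PDS, PSY and the unnamed unigene with the largest rise. Alternatives changed the added value, filter, scaling, model, limits and libraries. The same replicate numbers occur in each stage, and their pairing was checked.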

Additional observations from a re-analysis of the deposited data

How the results depend on the processing

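With 5 TPM added in place of 1, 1356 unigenes were called (543 higher, 813 lower), and with an adjusted p limit of 0.01, 1263 (414 higher, 849 lower). The falls numbered 1433 with a filter of 5 TPM and 1439 with quantile normalization or with median ratios. Leaving out 1 library at a time gave 1742 to 4719 calls, 593 to 1541 higher and 1149 to 3178 lower. The lowest counts came without PF_L replicate 3 and the highest without PF_Z replicate 3. There were 1918 calls without PF_L replicate 1, 1961 without PF_L replicate 2, 2092 without PF_Z replicate 1 and 2039 without PF_Z replicate 2. With a replicate block 2662 were called (837 higher, 1825 lower). The correlations of same-numbered PF_L and PF_Z deviations were 0.0161, 0.0432 and -0.0764, so the numbers were not taken as pairs. Of 92 called unigenes followed singly, which include all called ones named in the text, 80 kept their call under every alternative run, 12 lost it at least once and none changed direction, while 2 that were not called, RFC3 and SPL4, gained a call. The causes of these changes were not tested. TPM without counts sets no limit of detection, and 3 libraries a stage limit the precision.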
